A study of Saccharomyces cerevisiae with 27 samples.

Results

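Deletion of SIR3 in budding yeast was compared with the wild type BY4741 across the genome, beyond the mating-type genes for which silencing mutants are best known. Genes were taken from the deposited FPKM table (fragment counts scaled to gene length and library size) when they had at least 5 FPKM in the sir3 or the BY4741 column, SIR3 itself left out, which kept 6216 of 6664 genes. Both strains are Saccharomyces cerevisiae in the BY4741 background, one labelled wild type and the other a sir3 deletion, grown in rich YPD medium to exponential phase at an optical density of about 0.8 to 1, and total RNA was made into libraries with a TruSeq v2 kit. The labels hold 3 libraries of each strain, 1 of each with the extra label BIOO, while the series text speaks of duplicates. Some results also use an arp5 deletion (3 libraries, 1 labelled BIOO) and a sir3 arp5 double mutant (1 library, labelled BIOO). Each genotype has 1 FPKM column that the authors made from its libraries, and the sources used here do not say which libraries entered it. There is therefore no replicate error, no depth and no test for any value below; "higher" or "lower" as a call means past 2-fold in log2((FPKM + 1) in sir3 / (FPKM + 1) in BY4741), and a value of exactly 0 is described as listed at 0 and gets no fold. Differences between these bulk cultures do not separate a change in every cell from a change in a fraction of cells: fewer cells of a type and less RNA per cell cannot be told apart.

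Sir3 is a structural protein of silent chromatin. With Sir2 and Sir4 it spreads along nucleosomes from the chromosome ends and from the silencers beside HML and HMR, the silent copies of the mating-type genes, and it binds poorly to nucleosomes methylated at lysine 79 of histone H3 (H3K79). BY4741 is a haploid of mating type a, and loss of silencing lets it express the alpha copy as well. In such cells the a1 and alpha2 proteins act together as a repressor of haploid-specific genes.

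The deleted gene bore out its label. SIR3 (chromosome XII, bases 1019315 to 1022251, build sacCer3) stood at 10.04 FPKM in BY4741 and at 0.0572 FPKM in sir3. In the authors' deposited table of log2 ratios along genes, which reads both strands and cuts each gene into 15 equal parts flanked by 10 windows of 100 bp on either side, 35 windows in all, the median over the 15 parts of SIR3 was -5.63. In that authors' deposited table the pair of windows just before the gene stood at 4.30 and 3.76, and the neighbours RPS1A and ECM7 had medians of 0.01 and 0.38. The markers were those of mating type a: in BY4741 the a-factor genes MFA1 and MFA2 stood at 50355 and 28717 FPKM, while STE3, the alpha-cell receptor of a-factor, stood at 7.19 FPKM.

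By FPKM, 122 genes were higher in sir3 (1.96% of those counted) and 133 were lower (2.14%), and the median log2 over all 6216 genes was 0.0035. The median over the 15 gene parts in the authors' deposited table, called the gene-body median from here on, gave a much shorter list of rises: 12 genes higher (0.193%) and 98 lower (1.58%). All 12 were also higher by FPKM, and 79 genes were lower in both measures (1.27%). The sign alone was the same for 87 of the 122 genes called higher by FPKM and for 123 of the 133 called lower. Both tables were made by the authors from RNA of the same strains, so the second is another summary of the same comparison and not a replicate of it. The genes at the threshold were YER190C-A at 1.00 just inside and CSS1 at 0.999 just outside on the higher side, and RTT107 at -1.01 and GAL10 at -0.98 on the lower side. CRR1, with 5.005 FPKM, was the last gene counted and ATG1, with 4.99 FPKM, the first left out.

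**Figure D1:**
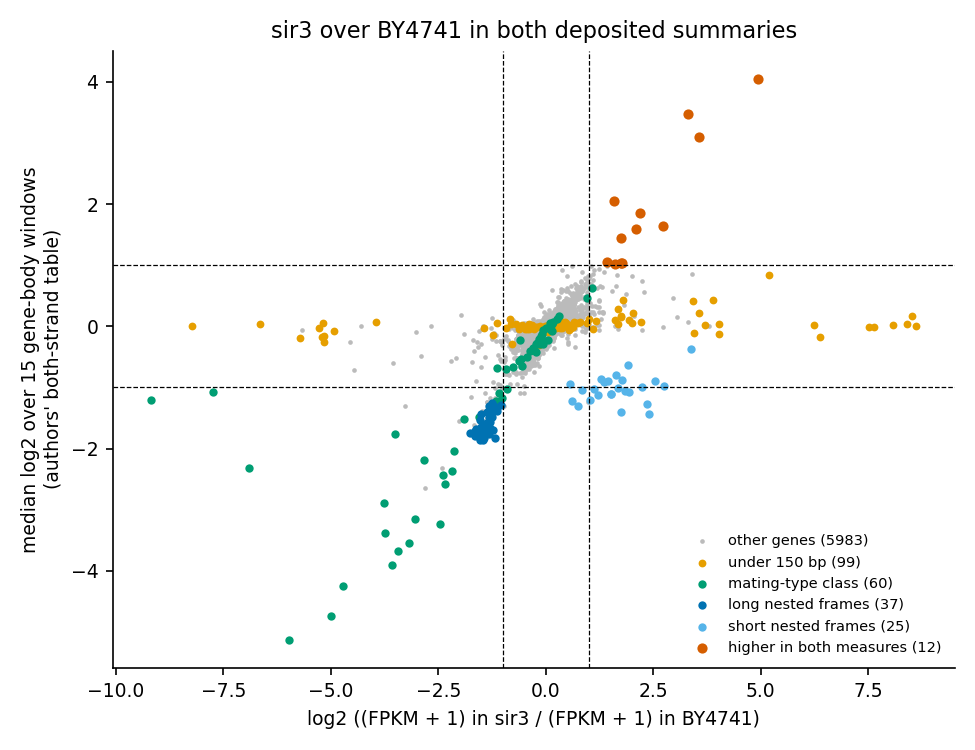
Each point is 1 of 6216 counted genes, with the log2 (FPKM + 1) ratio of sir3 over BY4741 on the x axis and the median log2 over 15 gene-body windows of the authors' deposited both-strand table on the y axis; dashed lines mark 2-fold. The 12 orange genes are higher in both, most genes under 150 bp lie along the line of no difference in the y measure whatever their FPKM ratio, and the long and short nested frames lie on opposite sides of 0 on the x axis and on the same side on the y axis.

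The 12 genes higher in both measures lay mostly at chromosome ends. Of these, 9 were within 10 kb of an end and 10 within 20 kb, a zone that held 229 of the 6216 counted genes (3.68%). The other two were HPF1, 30.2 kb from the left end of chromosome XV, and ARG1, 219.8 kb from an end of the same chromosome. All 12 were at least 300 bp long. They were picked for passing 2-fold in both measures, so their size in either is a description. Their position, histone marks and values in other genotypes were not used to pick them. Several of the 12, named below, were under 5 FPKM in BY4741 and were counted only through their level in sir3. Counted genes within 5 kb of an end had a median of 7.78 FPKM in BY4741, against 41.5 FPKM beyond 50 kb. The part of this level in the position of the 12 was not tested.

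Of the 12, the gene nearest a chromosome end also had the highest gene-body median. YFR057W (chromosome VI, bases 269061 to 269516), an open reading frame of no known function 0.873 kb from the right end that is a classic reporter of telomeric silencing, was listed at 0 in BY4741 and stood at 29.6 FPKM in sir3. Its gene-body median in the authors' deposited table was 4.05, and the windows before the gene reached 6.45, so the increase was not limited to the reading frame. YCL076W (chromosome III, bases 1392 to 2135) and YOL166C (chromosome XV, bases 1000 to 1338) were likewise listed at 0 in BY4741, and stood at 8.99 and 5.68 FPKM in sir3. Their gene-body medians in the authors' deposited table were 3.47 and 1.64.

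COS12 (chromosome VII, bases 2790 to 3932) encodes one of the Cos membrane proteins, a subtelomeric family that helps to sort other membrane proteins to the vacuole. It stood at 3.59 FPKM in BY4741 and 53.5 FPKM in sir3, a log2 difference of 3.57, and had a gene-body median of 3.10 in the authors' deposited table. YGL262W, its neighbour 5.58 kb from the same end, went from 0.846 to 6.92 FPKM (log2 2.10). Across the whole COS list, 11 genes were counted, 10 had a log2 above 0 and the median was 0.92, but only COS12 and COS1 passed 2-fold. COS1, 8.90 kb from the left end of chromosome XIV, stood at 98.1 FPKM in BY4741 and 206 FPKM in sir3 (log2 1.06). Members of this family have near-identical copies at other ends, and the sources used here do not say how reads were shared among copies.

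HPF1 encodes a cell-wall mannoprotein. It stood at 51.0 FPKM in BY4741 and 235 FPKM in sir3, a log2 difference of 2.18, with a gene-body median of 1.85 in the authors' deposited table. The windows before HPF1 moved the other way, between -2.87 and -1.04 with a median of -2.34 in that authors' deposited table. Within the gene the parts ranged from 0.61, in the first part, to 2.45 in that authors' deposited table. In the authors' deposited tables that separate the strands, its sense median was 2.30 and its antisense median was -2.45, so the strands differed in sign at this gene.

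IMD2 (chromosome VIII, bases 554396 to 555967), an inosine monophosphate dehydrogenase of guanine nucleotide synthesis, lay 7.46 kb from the right end. It stood at 49.6 FPKM in BY4741 and 169 FPKM in sir3 (log2 1.75), with a gene-body median of 1.45 in the authors' deposited table. At the right end of chromosome I, YAR075W went from 19.5 to 68.5 FPKM (log2 1.76). Its neighbour YAR073W, which overlaps it, went from 12.6 to 39.9 FPKM (log2 1.59). Both have a locus entry shared with another gene, so their values may not be separate. Whether reads were shared between them or with IMD2 was not tested. AAD15, of the aryl-alcohol dehydrogenase family, lay 1.86 kb from the left end of chromosome XV and went from 3.89 to 15.6 FPKM (log2 1.76). THI5, of thiamine precursor synthesis and one of a set of near-identical subtelomeric copies, went from 1.67 to 7.16 FPKM (log2 1.61); another copy, THI12, had a log2 of 1.09. The remaining gene of the 12, ARG1, argininosuccinate synthetase of arginine synthesis, went from 36.9 to 101 FPKM (log2 1.42) and had a gene-body median of 1.05 in the authors' deposited table.

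**Figure D2:**
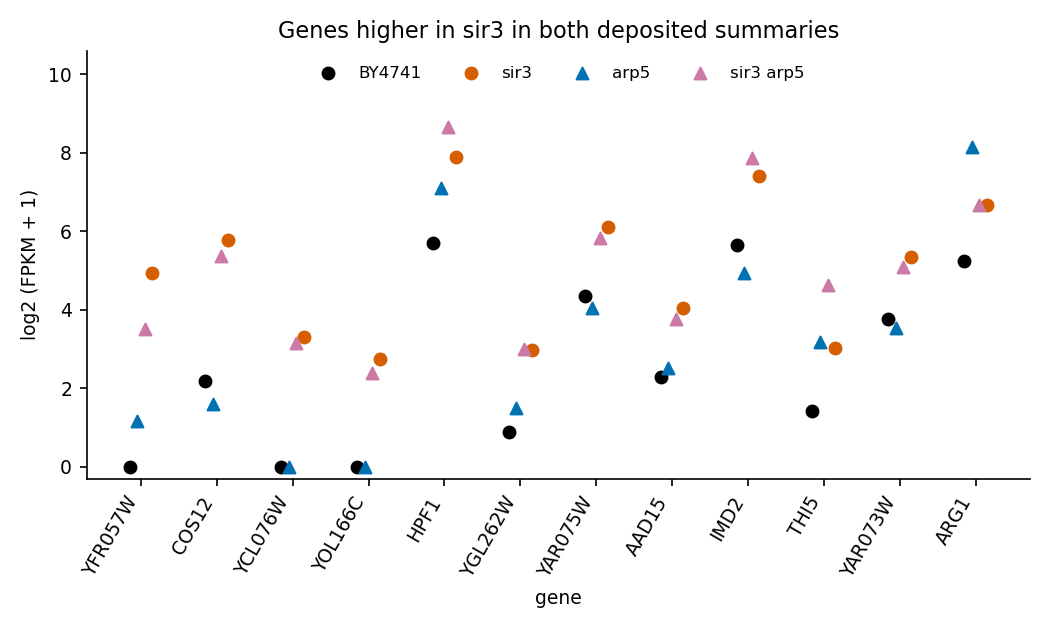
Levels of the 12 genes higher in both measures, as log2 (FPKM + 1) in the authors' columns for BY4741, sir3, arp5 and the sir3 arp5 double mutant (1 value per genotype, no error). In 11 of the 12 the double mutant stands above arp5, as sir3 stands above BY4741, and ARG1 stands lower in the double mutant than in arp5.

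Genes near chromosome ends stood slightly higher in sir3 as a group, which includes the near-end members of those 12. Among genes of at least 300 bp, the median log2 was 0.29 within 5 kb of an end, 0.52 from 5 to 10 kb, 0.19 from 10 to 20 kb and 0.10 from 20 to 30 kb, against 0.0017 from 30 to 50 kb and -0.0040 farther in. The share of such genes with a log2 above 0 was 83.1% of 65 within 5 kb, 86.0% of 43 from 5 to 10 kb and 67.3% of 104 from 10 to 20 kb, against 49.0% of 5184 beyond 50 kb. In the authors' deposited table the gene-body medians of these classes were smaller, 0.06, 0.18, 0.07 and -0.04, but still stood above the -0.08 beyond 50 kb. Most genes near an end thus stayed within 2-fold. A gene that reached 5 FPKM only in sir3 has a log2 above 0 through the filter alone, and one that reached it only in BY4741 has a log2 below 0. With a log2 above 0.5 there were 18, 22 and 21 genes in the 3 outer classes. Of these, 8, 15 and 10 had at least 5 FPKM in BY4741. The shares above 0 were not computed with only genes of at least 5 FPKM in BY4741.

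Of 32 chromosome ends, 31 had at least 3 counted genes of 300 bp or more within 20 kb, and the median log2 of each of these 31 was above 0. The left end of chromosome I, with 2 such genes, had a median of -0.21. All these medians include genes that reached 5 FPKM only in sir3. The end medians ran from 0.04 to 1.08, with 0.23 in the middle, and 25 of the 31 also had a gene-body median above 0 in the authors' deposited table. At least 1 gene past 2-fold higher was found at 12 of the 31 ends, and 7 ends had a median log2 above 0.5. The highest median was 1.08 at the left end of chromosome VII, led by COS12, YGL262W and YPS5. The left end of chromosome III had 0.75, the right end of chromosome I 0.71, the right end of chromosome III 0.70 and the left end of chromosome XV 0.69. The right end of chromosome VI had the lowest median, 0.04 over 7 genes, although it carries YFR057W. Whole chromosomes differed little: their medians, over genes not shorter than 300 bp that reached 5 FPKM in both columns, ran from -0.03 on chromosome XVI to 0.08 on chromosome III.

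**Figure D3:**
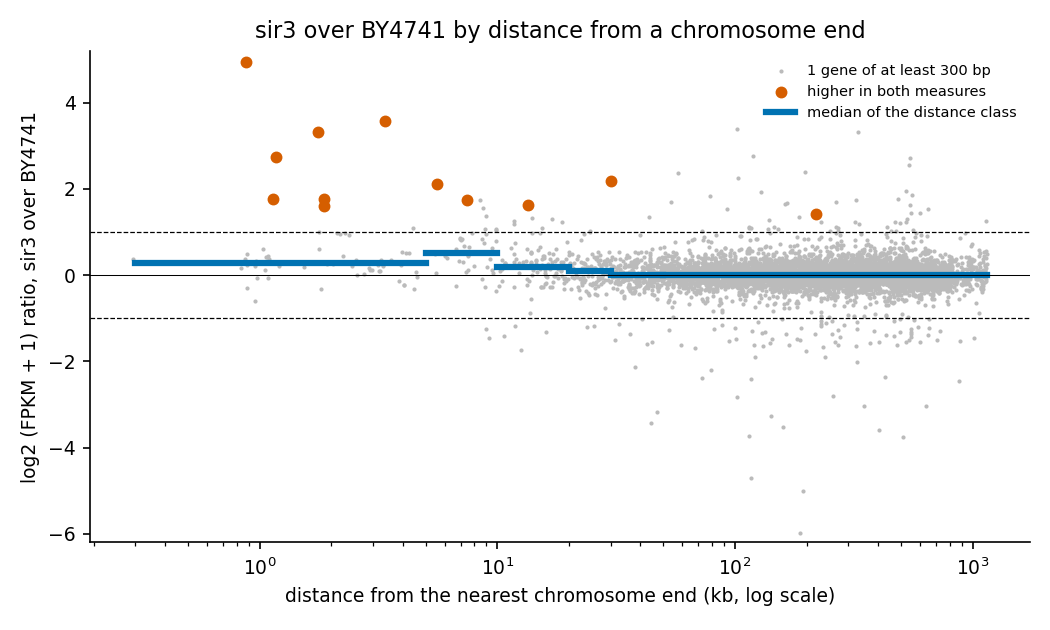
Log2 (FPKM + 1) ratio of sir3 over BY4741 for each counted gene of at least 300 bp against its distance from the nearest chromosome end on a log scale; blue bars are the medians of the 6 distance classes and dashed lines mark 2-fold. Of the 12 orange genes that are higher in both measures 10 lie within 20 kb, and the class medians fall from 0.29 and 0.52 in the outermost 10 kb to about 0 beyond 30 kb.

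The histone marks of the wild type were deposited as log2 ratios of precipitate over input in windows of 50 bp, from 1 library each, and were not used to choose any gene. H3K79me3 lies over the bodies of most active genes and H3K4me3 near the starts of active ones. In the authors' deposited table for BY4741, the 12 genes higher in both measures had a median H3K79me3 of -1.63, against 0.24 over the 5961 genes within 2-fold. Their lower and upper quartiles in the authors' deposited table were -1.84 and -1.33, against -0.44 and 0.70. Of the 12, YFR057W, YCL076W and YOL166C were listed at 0 in BY4741. YGL262W, THI5, COS12 and AAD15 stood at 0.846, 1.67, 3.59 and 3.89 FPKM there. These genes were counted only through their level in sir3. Levels in BY4741 were not matched between the groups, and their part in the marks was not tested. A low H3K79me3 was not particular to those 12: genes higher by FPKM alone had a median of -1.13 over 110 genes and genes lower by FPKM alone -1.31 over 54 genes in the authors' deposited table. For H3K4me3 the medians in the authors' deposited table were -2.89 over the 12 genes and 0.14 over genes within 2-fold. HPF1 stood apart from the rest of the 12 with an H3K79me3 of 0.71, and ARG1 had -0.47, both in the authors' deposited table. YFR057W, YCL076W and YOL166C had -1.93, -1.83 and -1.77 in that authors' deposited table.

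H3K79me3 also differed between genes at like distances from an end. In each distance class, genes of at least 300 bp with a log2 above 0.5 in sir3 had a lower median H3K79me3 in the authors' deposited table than the other genes of that class. Within 5 kb these medians were -0.34 over 18 genes and 0.28 over 47 genes, from 5 to 10 kb -0.87 over 22 and -0.33 over 21, and from 10 to 20 kb -1.10 over 21 and -0.17 over 83. The same order held beyond 50 kb, with -0.78 over 205 genes and 0.32 over 4979 genes in the authors' deposited table. The level in BY4741 moved with it: the genes above 0.5 had median BY4741 levels of 4.66, 7.61 and 4.85 FPKM in the 3 outer classes, against 7.85, 14.4 and 18.8 FPKM for the others, and its part in the result was not tested. Medians under 5 FPKM also mean that many of these genes were counted only through their level in sir3. With only genes of at least 5 FPKM in BY4741, a restriction chosen after seeing the data, the order held in 5 of the 6 classes, with -0.34 over 8 genes and 0.28 over 47 within 5 kb in the authors' deposited table. From 5 to 10 kb it was then -0.61 over 15 and -0.10 over 20, and from 10 to 20 kb -0.96 over 10 and -0.15 over 77. The exception was the class from 20 to 30 kb, with 0.35 over 5 genes and 0.06 over 106 in the authors' deposited table.

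**Figure D4:**
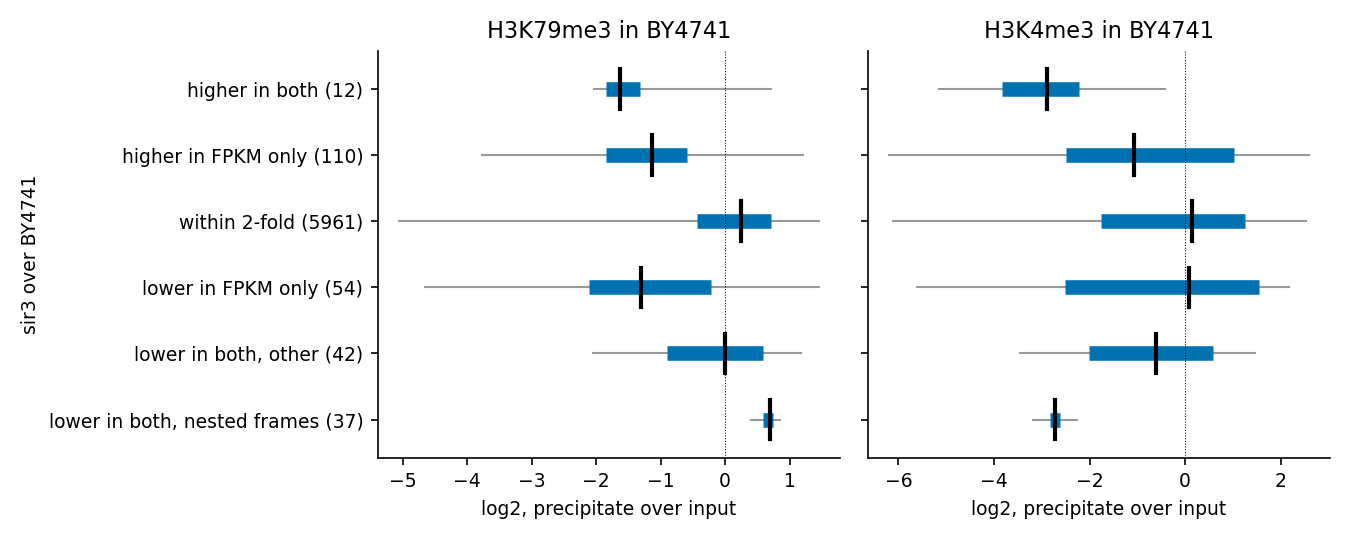
H3K79me3 and H3K4me3 in BY4741 (log2 of precipitate over input, median over the windows of each gene, authors' deposited table) for genes grouped by their change in sir3; black ticks are medians, blue bars the quartiles, grey lines the full range, and the number of genes is in parentheses. The 12 genes higher in both measures have medians of -1.63 and -2.89, below the 0.24 and 0.14 of genes within 2-fold. The groups were not matched for level in BY4741.

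The 79 genes lower in both measures were put into 3 groups: 25 of the mating-type lists, 37 long reading frames of nested pairs, and 17 others. Of the 79, 5 lay within 20 kb of an end. The mating-type genes gave the deepest values. All 8 a-specific genes and 13 of 14 haploid-specific genes were lower by FPKM, with medians of -5.34 and -2.75. STE2, the alpha-factor receptor of a cells, went from 432 to 5.87 FPKM, with a gene-body median of -5.13 in the authors' deposited table. Of the cassette genes, MATALPHA2 went from 102 to 216 FPKM (log2 1.08) and HMRA2 from 197 to 381 FPKM (log2 0.95); these share sequence with other cassette copies, so their values are uncertain. The alpha-specific genes had 3 counted members with a median of 0.17 and none past 2-fold.

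The 17 other genes lower in both measures share no single role. ICS2 (chromosome II, bases 553543 to 554310), of unknown function, went from 84.5 to 11.2 FPKM, a log2 difference of -2.81, with a gene-body median of -2.64 in the authors' deposited table. AMN1, which restrains mitotic exit and acts in separation of daughter cells, starts 2238 bases beyond the end of ICS2 and went from 161 to 61.5 FPKM (log2 -1.37). NDJ1, a meiotic protein that tethers chromosome ends to the nuclear envelope, went from 20.02 to 2.96 FPKM (log2 -2.41), with a gene-body median of -2.32 in the authors' deposited table. IME4, the RNA adenosine methyltransferase of meiotic entry, went from 37.7 to 12.9 FPKM (log2 -1.48). YGL193C, on the other strand 18 bases from the start of IME4, went from 96.8 to 9.17 FPKM (log2 -3.27), with a gene-body median of -1.30 in the authors' deposited table. Neither IME4 nor YGL193C has a value in the tables that separate the strands. The TruSeq v2 kit keeps no record of strand, so which strand fell at these genes is unknown. Of the meiosis and sporulation list as a whole, IME4 was the only one of 16 counted members past 2-fold, and the median was 0.03; NDJ1 is not in that list. The list of daughter-cell and separation genes had 1 lower (AMN1) and 1 higher of 14 counted, with a median of 0.04.

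Of the 5 genes lower in both measures within 20 kb of an end, 3 act in vitamin B6 synthesis and 1 in sugar alcohol use; the other was YHR214C-B. SNO2, SNO3 and SNZ3, which encode subunits of the vitamin B6 synthase, stood at 22.3, 18.1 and 18.8 FPKM in BY4741 and at 5.99, 6.18 and 7.71 FPKM in sir3. Their log2 differences were -1.74, -1.41 and -1.18, and these 3 were the members past 2-fold among 9 of the vitamin B6 list, whose median was -0.16. SOR1, sorbitol dehydrogenase, went from 8.22 to 2.85 FPKM (log2 -1.26). Its near-identical copy SOR2 had a log2 of -1.45 but a gene-body median of 0.01 in the authors' deposited table, so the measures differ there. SOR1, SNO2, SNO3 and SNZ3 lie between 8.96 and 12.5 kb from an end, within the zone where most genes had a log2 above 0.

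The remaining falls were of mixed kinds. PDE1, a cyclic AMP phosphodiesterase, went from 68.5 to 26.2 FPKM (log2 -1.36). VBA2, a vacuolar permease of basic amino acids, went from 29.8 to 12.6 FPKM (log2 -1.18), RTT107, a scaffold of DNA repair, from 13.5 to 6.21 FPKM (log2 -1.01), and YPR027C from 22.9 to 4.91 FPKM (log2 -2.01). At PDE1 the strands differed in the authors' deposited tables, with -1.58 on the sense strand and 2.84 on the antisense strand. At YPR027C the authors' deposited tables gave 0 for the sense strand and -1.46 for the antisense strand. The other 4 of the 17 were YAR009C, YDR170W-A, YHR214C-B and YLR035C-A, with log2 values from -1.68 to -1.31. They are 3591, 1323, 5383 and 3468 bp long. YDR170W-A, with a locus entry of its own, has the length of many short frames in the pairs described next. YAR009C, YHR214C-B and YLR035C-A had H3K79me3 of 0.80, 0.62 and 0.88 in the authors' deposited table, against a median of 0.69 over the 37 long frames. None of the 4 met the coordinate rule for those pairs, and whether they belong with them was not tested.

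The other large group was a set of 37 pairs of nested reading frames dispersed over the chromosomes. In each pair a long frame of 4816 to 5314 bases and a short frame of 1317 or 1323 bases start at the same base on the same strand; the pairs were recognised by these coordinates after their values were seen, and the sources used here give them no name. All 37 long frames were lower in sir3: their median level was 31.7 FPKM in BY4741, with a range of 10.4 to 40.3, and 11.1 FPKM in sir3, with a range of 3.58 to 14.2. Their log2 values ran from -1.75 to -1.05 with a median of -1.44. The gene-body medians in the authors' deposited table ran from -1.86 to -1.25 with a median of -1.66. Frames of the same lengths recur among the pairs. The sources used here do not say whether reads were shared among pairs, so the 37 values may not be separate.

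The short frames gave opposite answers in the FPKM and in the window values. Of 37 short frames 25 were counted. By FPKM, 21 of the 25 were higher in sir3 and none lower. Their median was 4.94 FPKM in BY4741 and 17.6 FPKM in sir3, with a median log2 of 1.63. With a BY4741 median under 5 FPKM, many of the 25 were counted only through their level in sir3. Such frames have a log2 above 0 through the filter alone. YOL103W-A, the highest of those not listed at 0, went from 1.89 to 18.6 FPKM (log2 2.76). In the authors' deposited table the gene-body medians of the same 25 frames were all below 0, with a median of -1.03, and 14 passed 2-fold lower. Along the frames the authors' deposited table stood near 0 at first and then dropped: over all 37 short frames the window medians lay between -1.53 and 0.08, and over the long frames between -1.88 and 0.05, the highest in the first parts. Since every short frame lies within a long one, reads over it could be counted for either frame; the part this plays in the values was not tested. Adding FPKM times length over both frames of a pair, the summed log2 ran from -1.34 to -0.82 with a median of -1.15, and 32 of 37 pairs were past 2-fold lower. The 21 short frames make up 17.2% of the 122 genes called higher by FPKM, and 11 of those 122 were past 2-fold lower by gene-body median. YML039W and YML040W are such a pair on chromosome XIII, both starting at base 196628. The long frame YML039W went from 39.5 to 11.02 FPKM, the short frame YML040W from 2.78 to 18.8 FPKM, and the gene-body median of YML040W in the authors' deposited table was -1.44.

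**Figure D5:**
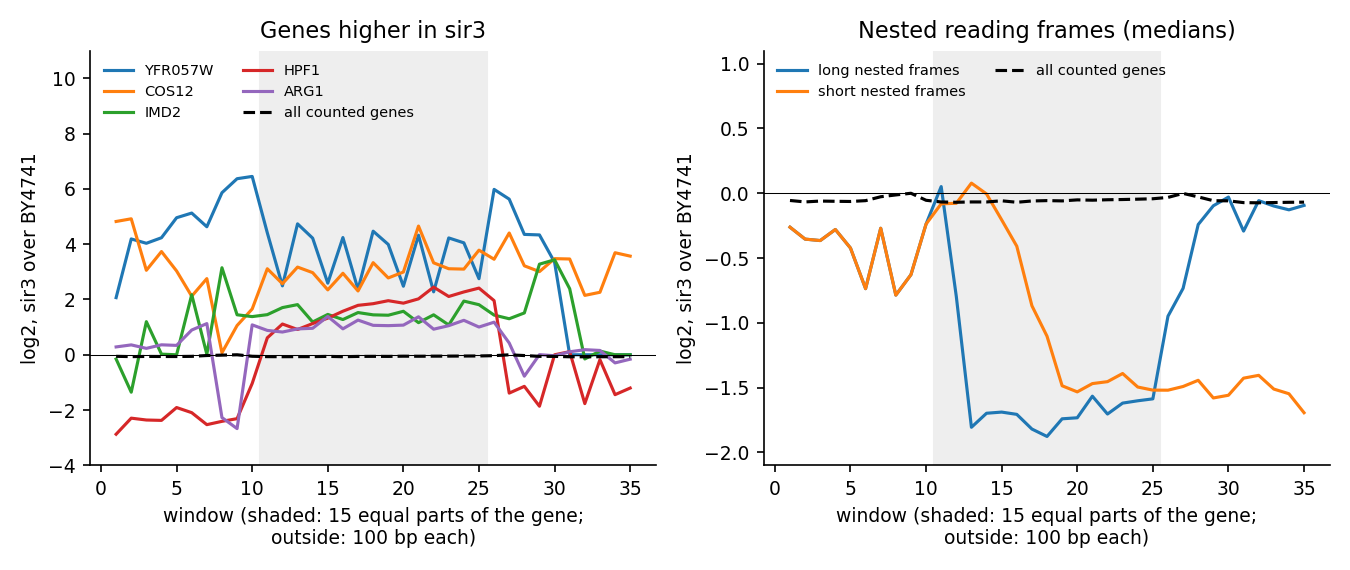
Log2 ratio of sir3 over BY4741 in the 35 windows of the authors' deposited both-strand table; the shaded part is the gene in 15 equal parts and the windows outside it are 100 bp each. On the left, YFR057W and COS12 are raised before, in and after the gene, while HPF1 is raised within it and lowered before it; on the right, medians over the 37 long and 37 short nested frames start near 0 and drop to about -1.5 or lower.

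Short genes supplied many of the largest FPKM ratios. Of the 122 genes called higher 46 were under 300 bp, and of the 133 called lower 32 were, against 416 of all 6216 (6.69%). Under 100 bp, 57.6% of 33 genes were past 2-fold. The correlation between the FPKM ratio and the gene-body median across those 33 genes was 0.06 (Pearson's r). It was 0.73 across the 68 genes of 100 to 150 bp and 0.72 across the 315 of 150 to 300 bp. In the class of 100 to 150 bp only MFA1 and MFA2 were past 2-fold by gene-body median. From 150 to 300 bp the only 1 was another gene of the mating-type lists. Correlations without these genes were not computed. Across the 1225 genes of 300 to 600 bp it was 0.77, and across the 1743 of 600 to 1200 bp 0.95. Across the 2832 longer ones it was 0.77. These include the long nested frames and the 25 counted short ones, whose FPKM ratios and gene-body medians differed in sign. Genes within a strain share the library and its depth and are not independent. MIN3 (87 bp) was listed at 0 in BY4741 and stood at 338 FPKM in sir3, but its gene-body median in the authors' deposited table was 0.03. YHR073C-B (81 bp) was listed at 0 in BY4741 and stood at 394 FPKM in sir3, and its gene-body median there was 0.0036. YKL156C-A (117 bp) went from 17.6 to 242 FPKM (log2 3.71) with a gene-body median of 0.02 in the authors' deposited table. In the other direction, YGR068W-A (96 bp) went from 204 to 1.05 FPKM with a gene-body median of 0.03 in the authors' deposited table. In all, 24 genes called higher were listed at 0 in BY4741, 15 of them under 150 bp and 3 with a gene-body median past 2-fold. The 16 called lower that were listed at 0 in sir3 were all under 300 bp, and none had a gene-body median past 2-fold. MFA1, at 111 bp, shows the same discrepancy in size for a mating gene, with a log2 of -9.18 by FPKM and -1.21 by gene-body median in the authors' deposited table.

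Longer genes can also be affected where the table gives several genes the same locus entry. Such entries covered 58 of the 122 genes called higher and 64 of the 133 called lower, against 1156 of all 6216 (18.6%). VAM10, which went from 7.19 to 0.0045 FPKM (log2 -3.03), had a gene-body median of -0.09 in the authors' deposited table. YHR069C-A went from 0.019 to 9.18 FPKM (log2 3.32) with a gene-body median of 0.08 there. Of genes of at least 300 bp with a locus entry of their own, 34 were higher and 46 lower.

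Genes of amino acid synthesis stood slightly higher in sir3 as a group. Over the lists of arginine, lysine, branched-chain, aromatic and histidine, and sulfur amino acid synthesis together, 73 of 78 counted genes (93.6%) had a log2 above 0, against 50.7% of all genes. Their median was 0.36, and the gene-body median of the same 78 genes in the authors' deposited table was 0.19, with 66 above 0. Only 3 of the 78 passed 2-fold, all of the arginine list, which had a median of 0.63 over 11 genes, each above 0. Among them were ARG1 and ARG3, ornithine carbamoyltransferase, which went from 3.11 to 7.31 FPKM (log2 1.02). By list, the other medians were 0.46 for lysine over 9 genes, 0.41 for branched-chain over 11, 0.36 for aromatic and histidine over 21 and 0.27 for sulfur over 26. The permeases of amino acids had a median of 0.38 over 15 genes, with none past 2-fold. Other metabolic lists also stood above 0: 16 of 16 trehalose and glycogen genes (median 0.29), 23 of 24 of glycolysis and fermentation (0.23), 9 of 9 hexose transporters (0.25), 16 of 17 of purine synthesis (0.20) and 21 of 24 of ergosterol synthesis (0.25). In the double mutant over arp5 the medians were -0.05 for arginine, -0.41 for lysine, -0.01 for branched-chain, -0.13 for aromatic and histidine and 0.36 for sulfur amino acid synthesis.

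A few members of other metabolic and stress lists passed 2-fold by FPKM, against 1.96% of all counted genes on the higher side, and all of those named here stayed within 2-fold by gene-body median. The hexose transporter HXT1, 1 of 9 in its list, went from 149.8 to 320.3 FPKM (log2 1.09), and the trehalose synthase subunit TSL1, 1 of 16, from 31.7 to 65.4 FPKM (log2 1.02). Their gene-body medians in the authors' deposited table were 0.76 and 0.82. GIT1, a glycerophosphoinositol transporter 18.8 kb from an end and 1 of 21 in the phosphate list, went from 3.54 to 9.67 FPKM (log2 1.23), with a gene-body median of 0.94 in the authors' deposited table. DAL3, ureidoglycolate lyase of allantoin breakdown and 1 of 22 in the nitrogen list, went from 12.1 to 25.7 FPKM (log2 1.02), with 0.64 there. DDI2 and DDI3, identical cyanamide hydratase genes near an end and 2 of 14 in the DNA damage list, had log2 values of 1.19 and 1.04 and gene-body medians of 0.63 and 0.39 in the authors' deposited table. The wall protein gene PRY3 had a log2 of 1.01 and NCA3, a member of the SUN family outside the lists, had 1.43, with gene-body medians of 0.79 and 0.99 in the authors' deposited table. The general stress list had a median of 0.23, with 17 of 20 genes above 0, 1 past 2-fold higher and 1 lower. These were HSP12, which went from 797 to 2484 FPKM (log2 1.64), and DDR2, 186 bp long, which went from 998 to 234 FPKM (log2 -2.09). Their gene-body medians in the authors' deposited table were 0.66 and -0.52.

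Over all counted genes 4.1% passed 2-fold in either direction, and the lists below, each of 10 to 42 genes, are read against that share. None of 35 large-subunit and 34 small-subunit ribosomal protein genes passed it, with medians of 0.06 and 0.10. The same was so for 32 proteasome genes at -0.03, 42 genes of the citrate cycle and respiration at 0.16, 35 of ribosome biogenesis at 0.0075 and 23 chaperone genes at -0.21. Of 24 genes of other silencing factors none passed 2-fold, with a median of -0.04 and a range of -0.37 to 0.37. The 15 genes of INO80 subunits had a median of -0.15 and 10 histone genes -0.17, again with none past 2-fold.

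Tables that separate the strands were deposited for a subset of genes, of which 1440 were counted here. The TruSeq v2 kit keeps no record of strand, and the sources used here do not explain how the strands were separated, so the meaning of these values is uncertain. On the sense strand 19 of the 1440 genes were past 2-fold higher (1.32%) and 54 lower (3.75%). On the antisense strand 66 were higher (4.58%) and 44 lower (3.06%), and 814 had a median of exactly 0. The sense values gave the same sign for 32 of the 34 genes lower in both measures that they covered, with 27 past 2-fold, and for 4 of the 5 covered genes of the 12 higher in both, with 3 past 2-fold. The exception among those 5 was YCL076W, with 0 on the sense strand and 3.41 on the antisense strand in the authors' deposited tables.

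The highest antisense value in the authors' deposited table was 3.46 at AAD3, an aryl-alcohol dehydrogenase gene 2.19 kb from the right end of chromosome III, ahead of YCL076W. After these came PDE1, the mannosyltransferase gene KTR2 and the wall protein gene TIR1, with 2.84, 2.74 and 2.60 in the authors' deposited table. By FPKM, AAD3 had a log2 of 0.95, KTR2 -0.09 and TIR1 0.42. The lowest antisense values in the authors' deposited table were -2.62 at PPN2, a vacuolar polyphosphatase, -2.59 at the polyubiquitin gene UBI4, -2.51 at HIS2 of histidine synthesis and -2.46 at the repressor gene MIG3, ahead of HPF1. Their FPKM log2 values were -0.26, 0.04, 0.44 and 0.46. CSS1, which just missed the 2-fold call by FPKM, had 4.52 on the sense strand and -2.37 on the antisense strand in the authors' deposited tables, the same opposition of strands as HPF1.

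The double mutant gave a second setting for the deletion. It lacks SIR3 and ARP5, a subunit of the INO80 chromatin remodelling complex, and has 1 library, labelled BIOO. Setting it against the arp5 column uses no column of the sir3 over BY4741 comparison. The labels hold 3 arp5 libraries, of which 1 is labelled BIOO. Genotype and set of libraries can therefore not be told apart in this setting. Of the 12 genes higher in both measures, 11 were past 2-fold higher in the double mutant over arp5, where 12.2% of 6378 counted genes were. The 6378 had at least 5 FPKM in arp5 or the double mutant. YOL166C, among the 11, was listed at 0 in arp5 and stood at 4.28 FPKM in the double mutant, so it is not among the 6378. YFR057W, YCL076W, YGL262W, COS12 and AAD15 were below 5 FPKM in arp5 and were counted only through the double mutant. COS12 stood at 2.02 FPKM in arp5 and 40.7 FPKM in the double mutant (log2 3.79), YCL076W was listed at 0 in arp5 and stood at 7.98 FPKM, and IMD2 went from 29.9 to 231 FPKM (log2 2.91). HPF1 started from a higher level in arp5, 136 FPKM, and stood at 404 FPKM in the double mutant (log2 1.56). ARG1 was the exception, at 283 FPKM in arp5 and 100.5 FPKM in the double mutant (log2 -1.49).

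Of the 79 genes lower in both measures, 69 were below 0 in the double mutant over arp5. The share of all genes below 0 in this setting was not computed, and the median over the 6216 counted genes was -0.0096. The 69 include the 37 long nested frames, whose values may not be separate. Of the 79, 16 were past 2-fold lower, against 6.54% of the 6378 genes counted for this setting. Neither column reached 5 FPKM for some of the 79, such as FUS3, FIG1 and NDJ1, so these are not among the 6378. The arp5 column gives the level from which the double mutant values start. STE2 stood at 13.5 FPKM in arp5 against 432 in BY4741, and ICS2 at 14.7 FPKM against 84.5. For the long nested frames the arp5 level was 19.5 FPKM in the median, the double mutant over arp5 gave a median log2 of -0.78, all 37 below 0, and the 25 short frames gave 0.95. By distance, the median log2 of the double mutant over arp5 was 0.72 within 5 kb of an end and 0.45 from 5 to 10 kb, against -0.03 beyond 50 kb.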

How the data were processed

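The authors' deposited FPKM come as 1 column per genotype; the submitters' processing notes name TopHat2 (2.0.8), Bowtie, Cuffdiff (2.0.2) and the build sacCer3. The authors' deposited tables along genes hold log2 ratios in 35 windows, and their ChIP tables log2 ratios over input in windows of 50 bp (Bowtie 0.12.9 per the submitters' processing notes); for their scaling the sources used here give nothing. Depth is unknown. From these, log2((FPKM + 1) ratios), gene-body medians, counts past 2-fold and medians by list and distance were computed with Python 3.11.15, pandas 2.3.3 and NumPy 2.4.6, tested on simulated data. Of 987 entries in 52 gene lists 982 matched; symbols come from a RefSeq R64 table that held 5989 of 6664 IDs. Tests across libraries were planned but could not be run on pooled columns. The genes and lists were chosen with earlier results of these data known. Genes were to be named as the 15 largest rises and falls outside the mating-type lists and not at 0, genes past 2-fold listed at 0, the 3 extremes of the mating-type class each way, 2 extremes of each list each way, 6 beyond 30 kb each way, 5 antisense gains and losses, and SIR3 with its neighbours. Of these, the text gives those that carry a comparison; members of the sets in both measures, NCA3, CSS1, the nested frames and other genes outside this rule were chosen after their values were seen. A gene that the rule also chose is not reported here. Alternatives changed the pseudocount, the filters, the scaling and the measure.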

Additional observations from a re-analysis of the deposited data

Results flagged for a closer look

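For 4 of the genes reported here, each of at least 300 bp with a locus entry of their own, the sir3 over BY4741 and the double mutant over arp5 values were past 2-fold in opposite directions. The double mutant over arp5 gave -2.50 for HSP12, -1.49 for ARG1, -1.52 for ARG3 and -1.43 for TSL1, against 1.64, 1.42, 1.02 and 1.02 for sir3 over BY4741 (all log2). Each rests on 1 column per genotype, and that of the double mutant on 1 library, so the difference was not tested. The arp5 levels were 4909 FPKM for HSP12, 283 for ARG1, 25.8 for ARG3 and 32.7 for TSL1, against 797, 36.9, 3.11 and 31.7 in BY4741.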

How the results depend on the processing

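No paired analysis was possible because each genotype has 1 pooled FPKM column, and leaving out a library was not run for the same reason. The count of genes higher in sir3, 122, became 72 with a mean FPKM of at least 10, 76 with genes of at least 300 bp, 64 with genes that have a locus entry of their own, and 12 by the gene-body median of the authors' deposited table, alone or with FPKM; the count of genes lower, 133, became 69 with own locus entries and 79 in both measures. The alternatives on locus entries, genes listed at 0, gene-body medians and the BY4741 level were chosen after seeing the data. With a pseudocount of 5 the a-specific median became -4.63, the haploid-specific median -1.93, and the median of the 12 genes in the double mutant over arp5 1.29. By gene-body median in the authors' deposited table the a-specific median was -2.25, that of the cassette genes 0.46, and that of genes 5 to 10 kb from an end 0.16. Among named genes past 2-fold the sign reversed in the authors' deposited tables for SOR2 (0.0079), YGR068W-A (0.032), YML040W (-1.44) and YOL103W-A (-0.97) over both strands, and for GIT1 (-0.14) on the sense strand; no pseudocount or scaling reversed one. Named genes past 2-fold came inside it for 16 with a pseudocount of 5, 3 by quantile normalization, 1 by centring, 21 by both-strand gene-body median and 5 by sense median. With at least 5 FPKM in BY4741, the H3K79me3 median of genes above 0.5 became 0.35 from 20 to 30 kb and -0.25 from 30 to 50 kb in the authors' deposited table. Other counts stayed within 1.5 times, and other medians within 0.3. Centring moved values by 0.001.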
